A study of Mus musculus with 2 samples.

Results

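The cytosolic ribosome is built from a small (40S) and a large (60S) subunit, and each protein in it is usually encoded by 1 active gene. The genes described here were taken by name: symbols that begin with Rpl or Rps and a digit, together with Rplp0, Rplp1, Rplp2 and Rpsa, without pseudogene names and without the Rps6k kinases. The rule found 86 of the 32285 features in the files. Of these, 46 encode 60S proteins, 31 encode 40S proteins, 8 are paralogs that resemble another member (Rpl3l, Rpl7l1, Rpl10l, Rpl22l1, Rpl36al, Rpl39l, Rps27l and Rps27rt), and 1, Rps19bp1, matches the name rule but encodes a protein that is no part of the ribosome.

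Mouse D3 embryonic stem cells, an established line, were profiled by droplet single-cell RNA sequencing on day 6 of a cardiomyocyte differentiation. One library came from control cells, labelled WT, and 1 from cells with a knockout of Zbtb16, a zinc-finger transcription factor; the stated question was which subpopulation Zbtb16 regulates at the cardiac progenitor stage. The labels do not say how the knockout was made, whether it is 1 clone, or whether cultures were pooled. With 1 library per group there was no replicate check, no test was run between libraries, and every interval below covers counting error only.

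Barcodes with at least 15000 unique molecular identifiers (UMIs, each marking 1 captured transcript) and at most 10% mitochondrial UMIs were kept as cells. This left 6354 control and 9449 knockout cells with medians of 37324 and 30513 UMIs and of 4.22% and 5.02% mitochondrial UMIs, and 16 cell barcodes were shared by the libraries. Zbtb16 itself stood at 22.2 UMIs per 1000000 UMIs of the cells (CPM) in the control library and 0.994 CPM in the knockout library. Barcodes within 10% of the UMI limit had a median ribosomal protein share of 18.5% below it (39 barcodes) and 18.7% above it (43 barcodes) in the control library, and of 16.8% (87 barcodes) and 16.5% (179 barcodes) in the knockout library.

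Ribosomal protein mRNAs are among the most abundant in growing cells. Most carry a 5' terminal oligopyrimidine (TOP) tract, through which mTOR and LARP1 control their translation and stability as a group, so the subunits are produced in balance. Several of them have tissue-restricted paralogs, often retrogenes, that are best known from testis.

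The promoter windows of the members whose levels departed most from the others, or whose paralogs did, show the start sites from which these mRNAs are made. They are RefSeq windows on GRCm38.p6, each of 80 bases, 60 before and 20 after the start, read 5' to 3' on the gene's strand. Of the 86 members, 66 had a window in this table. Capitals mark the letters CTTTCC or CCGGAAG, searched on both strands (with ATGGCGG, which none of the windows shown holds); these motifs do not overlap in the windows shown. Rps12 lies at chr10:23787190-23787269 (minus strand), Rps27 at chr3:90213629-90213708 (minus), Rps27l at chr9:66946026-66946105 (plus), Rpl39 at chrX:37085203-37085282 (minus), Rpl39l at chr16:10170168-10170247 (plus), Rpl38 at chr11:114668520-114668599 (plus) and Rpl27 at chr11:101442185-101442264 (plus).
Rps12: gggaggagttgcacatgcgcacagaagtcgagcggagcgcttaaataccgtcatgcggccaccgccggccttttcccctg
Rps27: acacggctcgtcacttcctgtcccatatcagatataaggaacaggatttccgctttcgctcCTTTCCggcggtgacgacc
Rps27l: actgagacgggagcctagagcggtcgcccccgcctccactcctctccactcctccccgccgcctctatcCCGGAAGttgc
Rpl39: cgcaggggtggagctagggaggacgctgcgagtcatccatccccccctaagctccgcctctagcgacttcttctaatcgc
Rpl39l: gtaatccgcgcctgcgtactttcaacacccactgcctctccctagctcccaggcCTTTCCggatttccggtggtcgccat
Rpl38: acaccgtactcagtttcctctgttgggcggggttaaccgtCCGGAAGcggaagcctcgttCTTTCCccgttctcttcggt
Rpl27: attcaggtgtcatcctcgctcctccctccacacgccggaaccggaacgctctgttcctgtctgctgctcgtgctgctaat

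Over the full 300-base windows, CTTTCC was found in 33 of the 66 member promoters and in 26.3% of all 27025 promoters in the table. CCGGAAG, the core letters of an ETS-type site, was found in 37.9% of member promoters and 9.1% of all promoters, and ATGGCGG, part of a YY1-type site that can include the start codon, in 15.2% and 4.2%. The window of Rps27 holds CTTTCC just after the start and that of its paralog Rps27l holds CCGGAAG there, and Rpl38 holds both. These are matches of letters in a window and no measure of binding.

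Ribosomal protein UMIs made up 18.9% of all UMIs in control cells (exact binomial 95% interval 18.908 to 18.916%) and 16.4% in knockout cells (16.413 to 16.421%). Over single cells the median share was 18.87% in the control library, with quartiles of 17.60 and 20.20%, and 16.38% in the knockout library, with quartiles of 15.09 and 17.73%. The libraries overlapped: 90.4% of control cells had a share above that of the median knockout cell, and 11.5% of knockout cells had a share above that of the median control cell. Both subunits were lower in the knockout library, the 60S genes at 9.02% against 10.4% and the 40S genes at 7.15% against 8.27%. With mitochondrial UMIs left out of the total the shares were 19.7% and 17.3%. In barcodes with 10 to 100 UMIs, taken here as free RNA, the share was 15.5% in the control and 13.8% in the knockout library, below that of the cells in both. A share of UMIs gives no number of molecules per cell.

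Among the members with the most UMIs were Rpl41, Rpl32 and Rpl13, at 5921, 5603 and 4827 CPM in the control library and 4992, 4522 and 4423 CPM in the knockout library. Rpl41 encodes the shortest protein of the ribosome, and all 3 are 60S proteins. UMIs count captured molecules and were not scaled to length. The order therefore reflects capture as well as abundance. At the other end, 4 members stayed under the 50 CPM used as a minimum in both libraries: Rps27rt, Rpl3l, Rpl10l and Rpl39l. The other 82 were measured.

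None of the 82 measured members differed by 1.5-fold between the libraries in either direction, against 4.57% of 3718 measured features that were lower in knockout cells by 1.5-fold or more and 14.3% that were higher by as much. The members moved together by a small amount: 79 of 82 had a log2 ratio of knockout over control (of CPM + 1) below 0, and 74 did under median-of-ratios size factors. Their median was -0.21 (0.03 once a trend with transcript length and GC content over all features was subtracted), with a range from -0.58 to 0.12, while the median of all measured features was 0.01. The 46 genes of the 60S subunit and the 31 of the 40S subunit had medians of -0.21 and -0.22. No member stood 1.5-fold away from the members' own median.

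The member just inside the 1.5-fold limit was Rps29, a small zinc-binding 40S protein, at 1257 CPM (interval 1253 to 1261) in the control library and 841 CPM (838 to 844) in the knockout library, a log2 ratio of -0.58. Over cells its quartiles were 1097 and 1439 CPM in the control and 694 and 979 CPM in the knockout library, so the middle ranges of the libraries did not overlap. Next came Rps27 (1250 and 850 CPM), Rpl38 (1454 and 997 CPM) and Rps28 (1934 and 1336 CPM), with log2 ratios of -0.56, -0.54 and -0.53. At the other end, Rpl23a, a 60S protein near the exit of the peptide tunnel, had 1107 CPM in control and 1204 CPM in knockout cells, a log2 ratio of 0.12, and Rps15 at 1490 and 1555 CPM, a log2 ratio of 0.06. Rpl5, which with Rpl11 binds 5S rRNA and can inhibit Mdm2, was nearly level at 1377 and 1381 CPM.

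**Figure D1:**
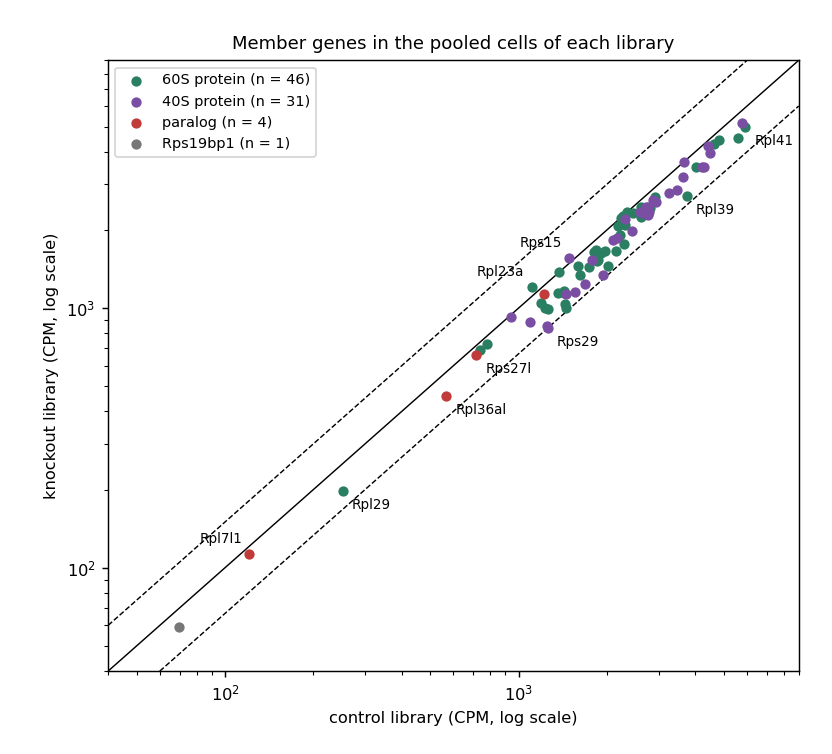
CPM of the 82 measured members in the pooled cells of the control library (x axis) and the knockout library (y axis), both on log scales; each point is 1 gene, the solid line marks equal levels and the dashed lines a 1.5-fold difference. All points lie between the dashed lines and 79 lie below the solid line, with Rps29 closest to the lower limit and Rpl23a farthest above equality.

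The members lowest in the knockout library had short coding sequences: 168 bases in Rps29, 252 in Rps27, 210 in Rpl38 and 207 in Rps28. Over the 77 core genes of the ribosome (46 and 31) Spearman's rho between coding length and the log2 ratio was 0.48, a description across genes of 2 libraries. The 27 genes of at most 405 coding bases had a median of -0.30, the 24 between had -0.15, and the 26 of at least 576 bases had -0.18. The shortest coding sequence, that of Rpl41 at 75 bases, did not follow this order, with a log2 ratio of -0.25.

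The relation with length was not particular to these genes. Over all 3718 measured features rho between transcript length and the ratio was 0.56, and the median log2 ratio was -0.20 in features of at most 1601 bases and 0.41 in those of at least 4425 bases. Of the 77 core genes, 67 fell among the features of at most 1601 bases, whose median of -0.20 was close to the members' own -0.21. With that trend and the one with GC content subtracted, 36 members lay below and 46 above 0. A relation with length across a whole library and an effect of genotype cannot be told apart with 2 libraries.

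**Figure D2:**
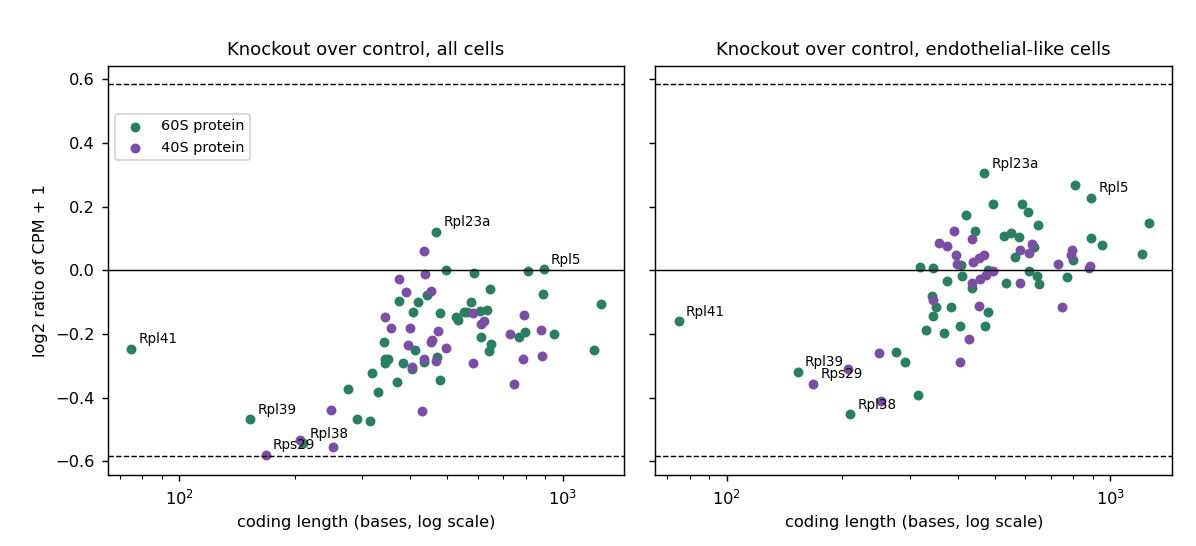
Log2 ratio of knockout over control (CPM + 1; y axis) against coding length in bases (x axis, log scale) for the 77 core ribosomal protein genes, in all cells (left) and in endothelial-like cells (right); each point is 1 gene, dashed lines mark a 1.5-fold difference. Genes with short coding sequences such as Rps29, Rpl38 and Rpl39 lie lowest in both panels, while the whole cloud is centred near 0 in endothelial-like cells.

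Cells were next set into states by UMIs of fixed marker lists. The sets named as types came from 4 lists: embryonic globins and erythroid genes (haematopoietic-like, 0 control and 30 knockout cells), visceral endoderm genes (105 and 203 cells), pluripotency genes (21 and 186 cells) and endothelial genes (270 and 406 cells). Within 25% of their limits lay 0 and 0, 3 and 6, 4 and 21, and 13 and 30 cells, in that order, and doubled limits left 140 of the 186 knockout pluripotent-like cells. The remaining sets are ranges cut from continuous levels and not types: high cardiomyocyte genes (1562 and 23 cells), intermediate cardiac genes (1868 and 157), posterior mesoderm genes (11 and 364), mesenchymal genes (431 and 2400) and cells past no limit (2073 and 5679). Near the limit of high cardiomyocyte genes, within 25% of it, lay 610 control cells, and near that of mesenchymal genes 2160 knockout cells. Cells past the limits of several distinct lists, 13 and 1, were set apart.

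Pluripotent-like cells had the highest ribosomal protein share in each library, 20.3% in the 186 knockout cells and 24.5% in the 21 control cells. The cells past no limit had 16.3% and 19.1%. Over cells the medians were 20.4% in knockout pluripotent-like cells, with quartiles of 18.8 and 21.8%, against 16.4% in knockout cells past no limit, with quartiles of 15.3 and 17.7%. The middle ranges did not overlap. Haematopoietic-like cells of the knockout library came next at 19.8% (30 cells; cell median 19.9%). Mesenchymal cells were lowest in the knockout library at 15.6%, and high cardiomyocyte cells (18.5%), mesenchymal cells (18.5%) and endothelial-like cells (18.7%) lay lowest and close together in the control library. Median depth was 42781 UMIs in knockout pluripotent-like, 48204.5 in haematopoietic-like and 30467 in knockout cells past no limit.

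The ribosomal protein share of endothelial-like cells was nearly the same in both libraries, 18.7% in the control (95% interval 18.66 to 18.70%) and 18.6% in the knockout (18.60 to 18.63%), a difference of -0.063 percentage points. Every other state with at least 50 cells in both libraries had a lower share in the knockout library. The difference was -3.54 points in visceral endoderm-like cells (20.1 and 16.5%), -2.98 points with intermediate cardiac genes (18.9 and 15.9%), -2.96 points with mesenchymal genes (18.5 and 15.6%) and -2.73 points in cells past no limit. The cell medians of endothelial-like cells were 18.9 and 18.5%, a gap of -0.40 points, and those of visceral endoderm-like cells were 19.1 and 16.6%, a gap of -2.57 points. The sign of the endothelial-like gap depended on the setting, from -0.24 points with at most 5% mitochondrial UMIs to 0.32 points with doubled marker limits; in each setting it was far smaller than the gap of all cells (-2.50 points).

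Within endothelial-like cells 42 members had a log2 ratio below 0 and 40 above, with a median of -0.00, while the median over the same 82 members was -0.27 in visceral endoderm-like cells, -0.26 with intermediate cardiac genes, -0.27 with mesenchymal genes and -0.25 in cells past no limit. No member passed 1.5-fold in endothelial-like cells, where 4.67% of 3600 features were lower and 9.53% higher by that much. In visceral endoderm-like cells 5 members were at least 1.5-fold lower (background 3.26%), among them Rpl37 at 2217 CPM in control and 1359 CPM in knockout cells and Rps29 at 1305 and 815 CPM. One member was that much lower with mesenchymal genes (background 2.21%) and 1 in cells past no limit (3.08%), and 2 were with intermediate cardiac genes (2.85%); none was higher in these states (13.5%, 11.6%, 13.5% and 12.6% of features). In endothelial-like cells Rpl7 went from 2258 CPM in control to 2720 CPM in knockout cells, a log2 ratio of 0.27, and Rpl23a at 1119 and 1382 CPM, a log2 ratio of 0.30. Rpl38 was still lower there, at 1450 and 1060 CPM, and the relation of ratio with coding length was present too (rho 0.61). Over all features of this state rho between transcript length and the ratio was 0.54. Features of at most 1609 bases had a median of -0.19, below the members' -0.00. The shortest features, cut in the same way, had -0.16 in visceral endoderm-like cells and -0.17 with intermediate cardiac genes. They had -0.19 with mesenchymal genes and -0.21 in cells past no limit. In these other states the members' medians lay below those values. The cause was not tested.

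Other values also differed between the libraries in this state, and several of them differed in other states too. Endothelial-like cells had median depths of 51360.5 UMIs (control) and 39036.5 UMIs (knockout). Medians over cells of their summed G2 and M phase markers were 2254 and 2680 CPM. The marker sums that follow are of pooled UMIs. The 15 cardiomyocyte markers summed to 328 CPM in control and 37.2 CPM in knockout endothelial-like cells, with 1 and 0 markers at 0, and the 12 pluripotency markers to 105 and 42.7 CPM, with 2 (Nanog and Dppa3) and 0 at 0. The 13 endothelial markers summed to 2926 and 2585 CPM with none at 0. In visceral endoderm-like cells, whose share was lower in the knockout library, median depths were 49596 (control) and 45975 UMIs (knockout). Their G2 and M phase medians were 902 and 1875 CPM. Cardiomyocyte markers summed to 248 and 117 CPM there, and pluripotency markers, in the opposite direction, to 54.5 and 67.4 CPM. The part of these values in the share was not tested.

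**Figure D3:**
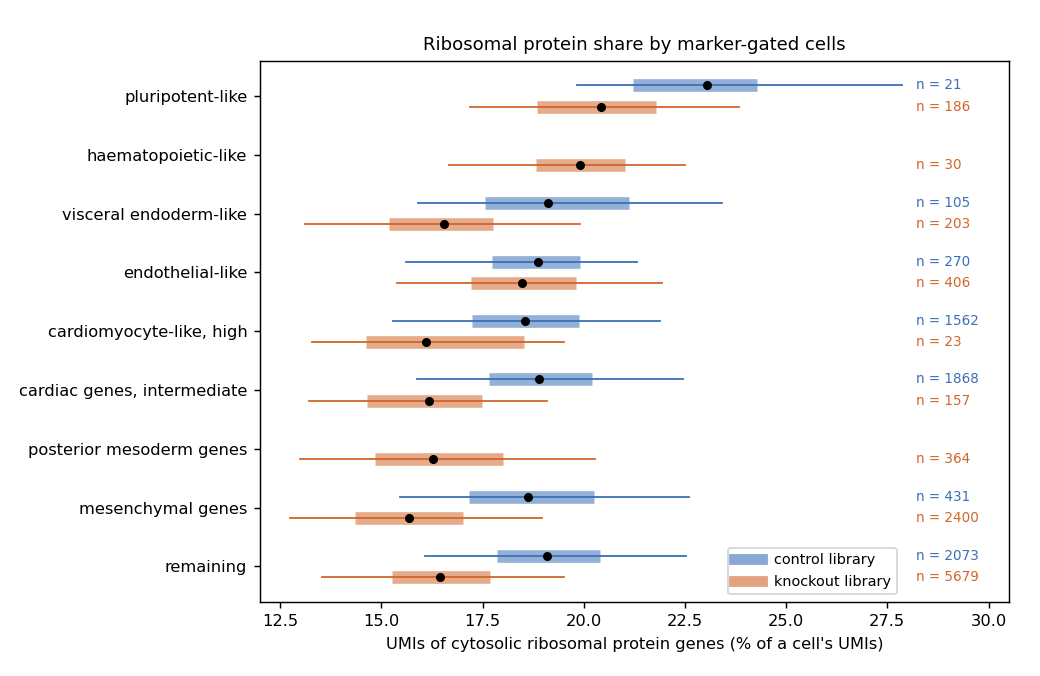
Share of each cell's UMIs from the 86 genes (x axis, %) by marker-gated state (rows) in the control (blue) and knockout (orange) library; dots are medians over cells, thick bars quartiles, thin lines the 5th to 95th percentile, and n the number of cells ("remaining" are the cells past no limit; states under 20 cells are not drawn). Pluripotent-like cells lie farthest right in both libraries, and endothelial-like cells are the state whose medians, 18.9 and 18.5%, lie closest together.

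A member was called an outlier in a state when its ratio to the cells past no limit of the same library differed at least 1.5-fold from the median ratio of the measured members. Among states of at least 50 cells only 1 member met this, Rps12 in knockout pluripotent-like cells. Rps12, a 40S protein at the beak of the small subunit that has been tied to cell competition in flies, stood at 5822 CPM there (interval 5773 to 5871) and at 2630 CPM in knockout cells past no limit, a log2 ratio of 1.15 beside a median of 0.33 for the members. All 186 cells held it, and the cell with most UMIs gave 2.22% of them. In the 21 control pluripotent-like cells it stood at 6079 CPM against 3215 CPM, a log2 ratio of 0.92 beside a median of 0.36, just inside the limit.

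The level of Rps12 differed less among the other states. In the knockout library it was 4106 CPM in haematopoietic-like, 3574 in endothelial-like, 3392 in visceral endoderm-like, 2722 with posterior mesoderm, 2567 with intermediate cardiac and 2449 with mesenchymal genes. In the control library it was 3911 CPM in visceral endoderm-like, 3456 in endothelial-like, 3215 with high cardiomyocyte and 3046 with mesenchymal genes. Of ribosomal protein UMIs, Rps12 gave 1.61% in knockout cells past no limit and 2.87% in knockout pluripotent-like cells, and 1.69 and 2.49% in the same states of the control library.

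Of the 82 members, 10 were at least 1.5-fold higher in knockout pluripotent-like cells than in knockout cells past no limit, against 19.9% of all features, and none was 1.5-fold lower (26.5% of features). Short features were higher in general in this comparison. Those of at most 1629 bases had a median log2 ratio of 0.20 and those of at least 4430.75 bases -0.32, beside 0.33 for the members. After Rps12 the highest log2 ratios were those of Rps27l (0.84; 1188 and 662 CPM), Rps21 (0.79; 2067 and 1194 CPM), Rplp2 (0.78; 1682 and 978 CPM) and Rplp1 (0.77; 3693 and 2159 CPM), the last pair being acidic proteins of the 60S stalk. Rpl39 (2558 and 2730 CPM) and Rpl41 (5119 and 5038 CPM) were nearly level. The pooled UMIs of knockout pluripotent-like cells summed to 4949 CPM of pluripotency markers, and all 12 were seen. Medians over cells of the summed S phase and G2 and M phase markers were 3152 and 3028 CPM, against 1778 and 2153 CPM in cells past no limit. Their part in the ratios was not tested.

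In the small states the outliers were others. In the 30 haematopoietic-like knockout cells Rpl27, a 60S protein, stood at 3242 CPM (3155 to 3332) against 1616 CPM in cells past no limit, a log2 ratio of 1.00, and every cell held it. In the same cells Rpl36al, the retrogene paralog of Rpl36a, stood at 928 CPM against 444 CPM, a log2 ratio of 1.06. The members' median there was 0.30, and 13 of 82 were at least 1.5-fold higher and none lower (background 23.6% and 31.1%). That median was not particular to the members. Over all features of this comparison, those of at most 1626 bases had a median of 0.31 and those of at least 4438.5 bases -0.44. In the 21 control pluripotent-like cells Rps27l stood at 1536 CPM against 791 CPM, and 1 cell gave 17.1% of its UMIs.

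**Figure D4:**
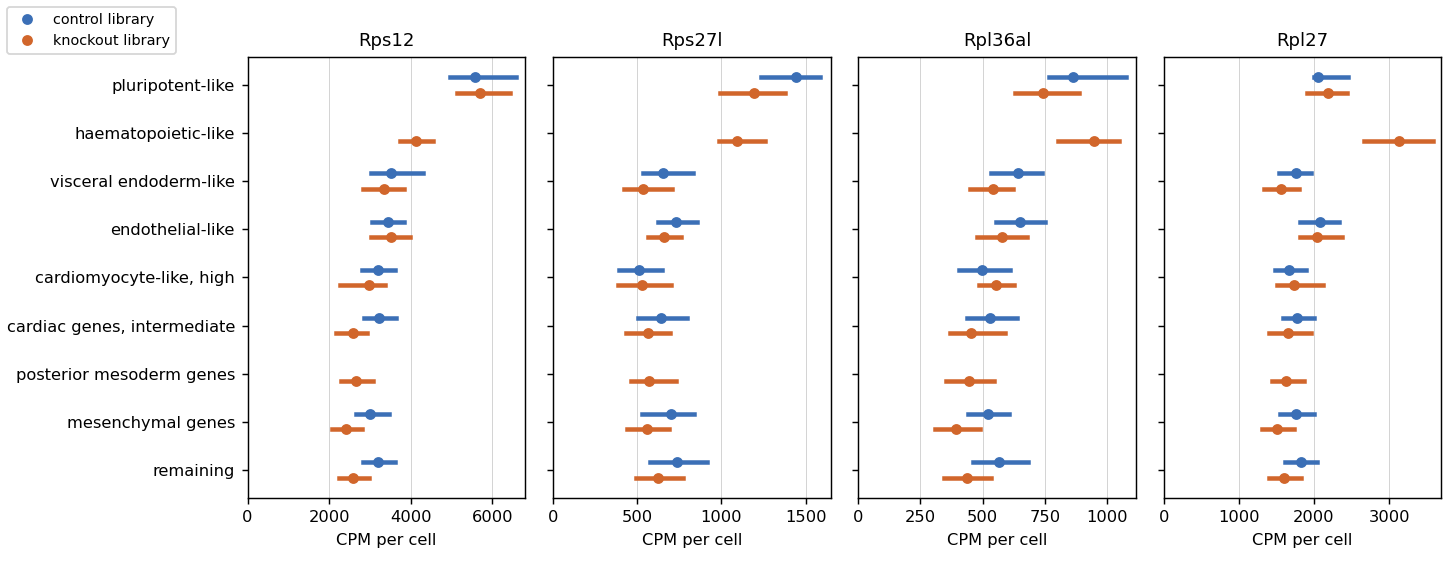
CPM per cell (x axes, from 0) of Rps12, Rps27l, Rpl36al and Rpl27 by state (rows) in the control (blue) and knockout (orange) library; dots are medians over cells and bars quartiles. Rps12 and Rps27l are highest in pluripotent-like cells of both libraries, and Rpl27 is highest in the 30 haematopoietic-like cells.

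Most UMIs of Rpl39l and Rpl10l, paralogs under 50 CPM over all cells, came from pluripotent-like cells. Rpl39l encodes a testis-enriched form of the tunnel protein Rpl39, and Rpl10l an autosomal retrogene copy of the X-linked Rpl10 that replaces it in male germ cells. In the control library 276 of 289 Rpl39l UMIs lay in the 21 pluripotent-like cells, and in the knockout library 281 of 334 lay in the 186 pluripotent-like cells and 40 in cells past no limit. For Rpl10l the counts were 94 of 102 UMIs (control) and 109 of 112 (knockout). These states held 0.33% and 1.97% of the cells.

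Rpl39l stood at 146 CPM in control pluripotent-like cells (interval 129 to 164) and 30.1 CPM in knockout pluripotent-like cells (26.7 to 33.9), and at 0.030 CPM (3 UMIs) and 0.20 CPM (40 UMIs) in cells past no limit. Its UMIs were uneven: 1 control cell held 113 of them, and without that cell the control level was 100 CPM. At least 1 Rpl39l UMI was found in 12 of 21 control cells (57.1%, exact 95% interval 34.0 to 78.2%) and 60 of 186 knockout cells (32.3%, 25.6 to 39.5%); with every cell thinned to 15000 UMIs the expected shares were 43.0 and 21.3%. Endothelial-like cells, with depths close to these, held an Rpl39l UMI in 2 of 270 control cells (0.74%; 0.41% thinned) and 1 of 406 knockout cells (0.25%; 0.099% thinned). Rpl39 itself stood at 3615 CPM in control pluripotent-like cells and 3739 CPM in control cells past no limit.

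Rpl10l stood at 49.6 CPM in control and 11.7 CPM in knockout pluripotent-like cells, and at 0.020 and 0.015 CPM (2 and 3 UMIs) in cells past no limit. It was found in 15 of 21 control cells (71.4%, 47.8 to 88.7%; 42.5% thinned to 15000 UMIs) and in 43 of 186 knockout cells (23.1%, 17.3 to 29.8%; 12.7% thinned). In endothelial-like cells it was found in 0 of 270 and 0 of 406, where exact intervals allow up to 1.36% and 0.90% of cells with a UMI. Both paralogs were seen together in 10 of the control and 24 of the knockout pluripotent-like cells, and neither in 4 and 107. Both had higher CPM in the control than in the knockout cells of this state, where 21 cells stand against 186, and no test of that was possible.

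**Figure D5:**
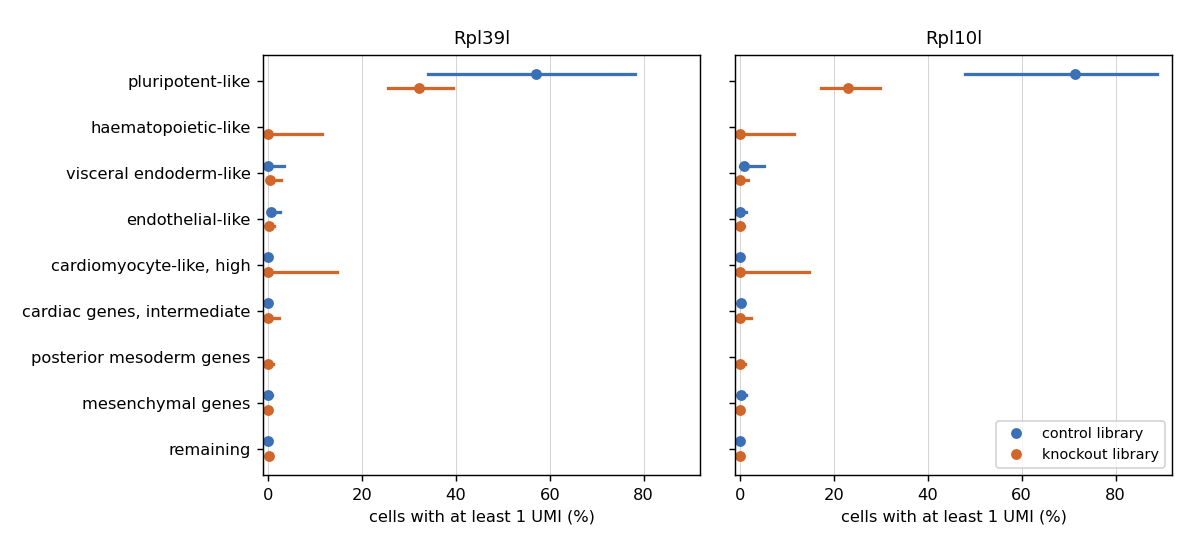
Percent of cells with at least 1 UMI (x axes) of Rpl39l (left) and Rpl10l (right) by state (rows) in the control (blue) and knockout (orange) library; dots are shares and bars exact 95% binomial intervals for counting error, at the cells' own depths. Pluripotent-like cells, at 57.1 and 32.3% for Rpl39l and 71.4 and 23.1% for Rpl10l, lie apart from all other states drawn, whose shares are under 1%.

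Of the other paralogs, Rps27l, Rpl22l1, Rpl36al and Rpl7l1 were measured over all cells. Rps27l, a p53-responsive paralog of Rps27, had 717 CPM in control and 659 CPM in knockout cells, against 1250 and 850 CPM for Rps27, so its ratio of -0.12 lay above that of Rps27 (-0.56). Rpl22l1, which can take the place of Rpl22, stood at 1225 and 1128 CPM, with its highest level in endothelial-like cells (1477 and 1455 CPM), while Rpl22 (1432 and 1169 CPM over all cells) was highest in pluripotent-like cells at 2292 and 1708 CPM. Rpl36al stood at 566 and 458 CPM beside 1428 and 1142 CPM for Rpl36a. Rpl7l1, a nucleolar relative of Rpl7, stood at 121 and 113 CPM beside 2273 and 2271 CPM. Rpl3l, the muscle paralog of Rpl3, had 28 and 19 UMIs, of which 11 and 10 lay in cells past no limit, beside 1976 and 1663 CPM for Rpl3.

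Rps27rt, a retrogene copy of Rps27, stood at 36.8 and 28.4 CPM. Its transcript shares 90.4% of its 31-base stretches with that of Rps27 in the GENCODE M21 models, so its counts and those of Rps27 cannot be fully told apart. By the same measure Rpl39l shares 1.03% with Rpl39, and Rps27l, Rpl36al, Rpl10l, Rpl22l1, Rpl7l1 and Rpl3l share none. Rps19bp1, an Rps19-binding nucleolar protein and a regulator of Sirt1, stood at 69.6 and 59.4 CPM. Processed pseudogene rows left out by the rule were low: Rpl9-ps6 reached 54.4 and 48.6 CPM and Rpl10-ps3 29.8 and 28.4 CPM.

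Within a library, some members varied more among cells than the rest. Variation beyond counting noise in a member's part of a cell's ribosomal protein UMIs was 29.1% (as a coefficient of variation) for Rps27l in the control and 29.5% in the knockout library, 24.9 and 27.8% for Rpl23a, 23.8 and 24.9% for Rpl7l1, 23.2 and 20.1% for Rps25, 21.1 and 22.4% for Rpl22l1, 19.99 and 25.5% for Rps12 and 18.7 and 20.4% for Rps26. These were singled out after their values were seen, and other members of similar spread are not listed. Rpl18 was among the most even (5.57 and 7.65%). Rps26, which binds at the mRNA exit channel, stood at 2259 CPM in control and 2116 CPM in knockout endothelial-like cells and at 2439 and 1961 CPM in visceral endoderm-like cells, under its level in cells past no limit (2790 and 2515 CPM).

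The share also differed with the cell cycle. The 25% of cells with the lowest summed G2 and M phase markers had median shares of 19.9% (control) and 17.4% (knockout), and the 25% with the highest had 17.9% and 15.6%. The same order held in control cells with high cardiomyocyte genes (19.4 and 17.5%), in knockout mesenchymal cells (16.8 and 14.6%) and in knockout endothelial-like cells (20.4 and 17.8%). It was weaker in control endothelial-like cells (19.4 and 18.6%, in 25 and 69 cells). In that state the knockout library thus had the higher median at the lowest marker sums and the lower median at the highest. Markers add to the total against which the share is taken. Over all cells of the control library their median sum per 10000 UMIs was 1.53 in the lowest 25% and 58.7 in the highest. In the knockout library these sums were 1.69 and 65.4 per 10000 UMIs. The part of the markers in the share was not tested. From the 25% of cells with fewest UMIs to the 25% with most, the medians went from 19.3 to 18.7% in the control and from 16.8 to 16.1% in the knockout library. By mitochondrial share they went from 18.6 to 19.1% and from 16.1 to 16.5%, in the opposite direction.

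Other genes of the translation machinery were taken from fixed lists. Fau, which encodes the 40S protein eS30 fused to a ubiquitin-like protein, stood at 2619 and 2066 CPM, a log2 ratio of -0.34. Rack1, a scaffold on the 40S head, was nearly level at 2104 and 2037 CPM. Of 16 other TOP mRNAs none passed 1.5-fold in either direction (background 14.3% higher and 4.57% lower). Their median was -0.01, with a range from -0.28 to 0.45 and 9 of 16 below 0. Eef1a1, elongation factor 1A, stood at 8977 and 9130 CPM, Tpt1 at 5187 and 4366 CPM, and Pabpc1, the poly(A)-binding protein, at 709 and 936 CPM.

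Among 25 measured genes of nucleolar ribosome assembly 4 passed 1.5-fold upward in knockout cells and none downward (background 14.3% and 4.57%), with a median of 0.13. Utp20 (21.6 and 55.4 CPM) and Mdn1 (27.8 and 56.3 CPM), both large proteins of pre-ribosome maturation, were highest by ratio, and Ncl, nucleolin, stood at 900 and 1219 CPM. Of 6 RNA polymerase I genes none passed, with a median of -0.05; Ubtf, its upstream binding factor, stood at 91.4 and 113 CPM and Polr1c at 50.9 and 39.4 CPM. Of 59 mitochondrial ribosomal protein genes none passed, 57 were below 0 (1826 of all 3718 features), and the median was -0.23, close to that of the cytosolic members. Mrpl49 had the lowest ratio, at 53.9 and 37.4 CPM. The values of these lists were not corrected for transcript length. Over all features the median was -0.20 at up to 1601 bases and 0.41 from 4425 bases. The part of length in these values was not tested.

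The next counts stand beside the same 14.3% of all features that were higher in knockout cells by 1.5-fold or more, and on so few genes none is read as a departure from it. Of 22 initiation factors 1 passed, Eif4g1, the scaffold of the cap-binding complex, with a log2 ratio of 0.80 (349 CPM in the knockout library), and the median was -0.00. Of 7 measured Myc and mTOR regulators 2 were higher: Larp1, which binds TOP mRNAs, at 62.4 and 112 CPM, and Larp4 at 76.4 and 125 CPM. Of 6 p53 response genes 1 was higher, Ccng1 at 57.0 and 107 CPM, and Trp53 stood at 194 and 211 CPM. Gas5, a snoRNA host gene that also carries a TOP tract, stood at 385 and 289 CPM, a ratio of -0.41; none of the 3 measured host genes passed.

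Across cells of a library, Pearson's r with the ribosomal protein share was 0.60 in the control (6354 cells) and 0.63 in the knockout library (9449 cells) for Fau, 0.60 and 0.60 for Eef1a1, 0.43 and 0.53 for Rack1, and 0.44 and 0.46 for Gas5. The median over 3635 other measured features was -0.07 and -0.06, and 13 and 17 of them exceeded 0.3. Eif4g2 and Eif4g1, initiation factor scaffolds, had r of -0.30 and -0.26, and of -0.22 and -0.24. The points of these correlations are cells of 1 library that share its depth range and a common total, so they are descriptions only.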

How the data were processed

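The authors deposited 1 matrix of raw UMI counts per library; per the file headers it was written by Cell Ranger 4, and the submitters' processing notes name Cell Ranger, R 4.1.1 and the build GRCm39 (mm39). The protocol in the labels is an MGI DNBelab C Series droplet kit. Annotation of lengths (GENCODE M21) and the promoter table are on GRCm38, so no coordinates of the files' build are given. The members and lists were chosen with earlier results of these data known; marker limits were set on marker levels, never on ribosomal protein values.

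UMIs were summed over cells per library and state and divided by total UMIs (CPM). A feature was measured at 50 CPM in either group, ratios are log2 of CPM + 1, and called means 1.5-fold, since 1 library per group allows no test; states needed 20 cells to be shown and 50 to be counted for outliers. A cell passed a marker limit with at least 3 markers and, per 10000 UMIs, 10 UMIs of haematopoietic, visceral endoderm or endothelial, 16 of pluripotency or 32 of cardiomyocyte markers, then 8 of cardiomyocyte, 4 of posterior mesoderm or 16 of mesenchymal markers. Doublets were not called; 1 alternative leaves out the top 6% of cells by UMIs. Intervals are exact (binomial or Poisson, 95%), and cells are not replicates. Cells held 94.8% and 96.0% of library UMIs (308465930 and 357324373).

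Named are outliers, the 4 members with most UMIs, the paralogs beside their relatives, Rps19bp1, members next to the 1.5-fold limit and, of each list, up to 3 genes by CPM and 2 by ratio; further members named were chosen after their values were seen. Some items that this rule would name are not reported here. The method was tested on simulated data first. Python 3.11.15, numpy 2.4.6, scipy 1.17.1, pandas 2.3.3 and statsmodels 0.14.6 were used.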

Additional observations from a re-analysis of the deposited data

How the results depend on the processing

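No paired analysis was possible because neither control nor knockout has a second library. Of the alternatives, 3 values changed sign. The median log2 ratio of the members went from -0.21 to 0.029 after correction for transcript length and GC content, and the endothelial-like difference in share (-0.063 points) went to 0.072 points without mitochondrial UMIs and to 0.32 points with doubled marker limits; beyond what each alternative removes, the cause was not tested. The endothelial-like difference was -0.13 points with the doubled UMI minimum, -0.24 with at most 5% mitochondrial UMIs, -0.15 with cells weighted equally, -0.17 without the top 6% of cells by UMIs and -0.21 with halved limits. The difference of all cells (-2.50 points) kept its sign in the settings run for it. It was -2.55, -2.52, -2.47 and -2.42 points with the UMI, mitochondrial, equal-weight and top-cell settings. With core members only it was -2.47 points, and without mitochondrial UMIs -2.46 points. The correction for transcript length and GC content was applied to ratios only and not to shares. The excess of knockout pluripotent-like cells over cells past no limit (3.96 points) was 4.13, 3.75 and 4.07 points with the UMI, mitochondrial and top-cell settings, 3.86 with core members, 4.08 without mitochondrial UMIs and 3.78 with halved limits. The median log2 ratio was -0.20 without mitochondrial UMIs and without the top cells, -0.19 under TMM and -0.17 under size factors. Rps29 passed 1.5-fold (1 member, at -0.60 and -0.59) with equal weights and without the top cells. With a minimum of 1 CPM the outliers in states of at least 50 cells were 3, Rpl39l and Rpl10l joining Rps12. The other 33 values stayed within counting error or the same count.

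Limits come from 1 library per group, from states of 21 to 30 cells, and, for Rpl39l, Rpl10l and Rpl3l, from few UMIs.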
